A study of Arabidopsis thaliana with 35 samples.

Results

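A set of 10 genes of jasmonate synthesis, repression and output was followed through an estradiol induction experiment in Arabidopsis seedlings. They are 3 synthesis genes, LOX2 (AT3G45140), LOX3 (AT1G17420) and AOS (AT5G42650), 5 repressor genes, JAZ1 (AT1G19180), JAZ5 (AT1G17380), JAZ7 (AT2G34600), JAZ8 (AT1G30135) and JAZ10 (AT5G13220), and 2 output genes, VSP1 (AT5G24780) and VSP2 (AT5G24770). The genes were chosen by name, for their place in the pathway, with earlier results of these data known. Their counts beside the shares of all genes are therefore descriptions and not an independent test. All 10 were found among the 32833 genes of each count table. RNA was taken from whole 7-day-old seedlings in 35 libraries of 9 conditions. The er XVE:ER line is the er mutant carrying an estradiol-inducible ER transgene. The XVE:EPFL4 line carries an inducible EPFL4 transgene, with no er mutation named in its label, and WT carries neither transgene. Each genotype was sampled uninduced, from mock plates, and after 3 h or 8 h on plates with 5 mM 17-β-estradiol. Every condition has 4 libraries except er XVE:ER at 3 h, which has 3 libraries, numbered 1, 2 and 4. WT was given estradiol as well, and the labels give no mock plates at 3 h or 8 h, so that estradiol, transfer and time of day cannot be told apart within a genotype. ER is a receptor kinase and EPFL4 one of its peptide ligands. The XVE activator of the ER line is driven by the constitutive 35S promoter, so ER is not confined to the tissues that normally express it, and how many independent lines were used is not given in the sources used here. In whole seedlings, fewer cells of a type and less RNA per cell cannot be told apart.

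Jasmonates are lipid hormones made from linolenic acid, which 13-lipoxygenases such as LOX2 and LOX3 oxidize in the plastid and allene oxide synthase, AOS, commits to the pathway. The active form, jasmonoyl-isoleucine, joins the receptor COI1 to JAZ proteins, which are then destroyed. JAZ proteins otherwise hold MYC transcription factors in check, and since the MYC factors switch on JAZ and LOX genes too, transcripts of JAZ genes are often used as a readout of the hormone. VSP1 and VSP2 encode vegetative storage proteins of leaves, a classical late output of the MYC branch. The pathway is known for wound and herbivore defence and is linked to the circadian clock.

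Total counts ran from 18224765 to 25089853 per library (median 20657563). Values are given as CPM, which are counts scaled to the size of the library, here with TMM factors over the 35 libraries. The transgenes followed the labels: in er XVE:ER, ER was at 44.5 to 67.8 CPM uninduced, 267 to 457 CPM at 3 h and 724 to 1540 CPM at 8 h, and in XVE:EPFL4, EPFL4 was at 1.35 to 3.39 CPM uninduced, 984 to 1730 CPM at 3 h and 820 to 3010 CPM at 8 h. Uninduced WT had 0.535 to 0.793 CPM of EPFL4, below every uninduced XVE:EPFL4 library. It had 67.8 to 84.4 CPM of ER, so ER RNA was lower in uninduced er XVE:ER but not absent. The source of the ER RNA in that line before induction was not tested. The leaf gene RBCS1A (9230 to 19100 CPM) and the root gene PYK10 (1220 to 4400 CPM) were both present in every library, and the 4 tissue markers measured moved in different directions. Against uninduced, the root gene TIP2;3 was lower at 8 h in er XVE:ER (log2 -1.74), XVE:EPFL4 (-2.06) and WT (-1.63), all called, whereas PYK10 was higher in WT (0.77, called) and not called in er XVE:ER (0.59) or XVE:EPFL4 (-0.14). The leaf gene LHCB1.3 averaged 10200 CPM uninduced, 15400 CPM at 3 h and 7090 CPM at 8 h in WT. In the same order it averaged 12600, 14200 and 13300 CPM in er XVE:ER and 11600, 14400 and 9940 CPM in XVE:EPFL4. The part of tissue makeup in the results was not tested. A set of 6 libraries stood apart and bear on what follows. In er XVE:ER uninduced replicate 4 all 10 jasmonate genes had the lowest value of their group, the morning clock gene LHY was 22.3 CPM against 214 to 232 CPM in the other 3 libraries, and the most similar library was WT 3 h replicate 4. The nearest library to WT 3 h replicate 4 was likewise from another group, and its level of the clock gene PRR7 was 282 CPM, against 156 to 186 CPM in the other 10 libraries at 3 h. At 8 h, WT replicates 2 and 3, er XVE:ER replicate 1 and XVE:EPFL4 replicate 1 had 25.3 to 43.6 CPM of PRR7, against 97.5 to 172 CPM in the other 8 libraries. How many of all genes were lowest in er XVE:ER uninduced replicate 4 was not counted. The part these differences play in the results was not tested, and counts that change are also given without the libraries concerned. All 6 were picked by their values in these data. Leaving such libraries out can narrow the spread, so the calls and p-values without them are descriptions.

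The sequence just upstream of each gene was read because MYC factors bind G-box-like hexamers. In the 250 bases before the annotated start (TAIR10.1, RefSeq), CACGTG was found in AOS, JAZ7 and JAZ8, AACGTG in JAZ5 and VSP1 and CATGTG in LOX2, LOX3 and JAZ10, on either strand, whereas JAZ1 and VSP2 held none of them. Thus 8 of 10 genes held at least one, against 22.8% of 27443 promoters of the same length, and the single hexamers were in 6.49% (CACGTG), 7.54% (AACGTG) and 11.1% (CATGTG) of promoters. On the opposite strand CACGTG reads the same, CATGTG reads as CACATG and AACGTG as CACGTT. A match is a description of these letters and says nothing about binding. LOX2 is shown with LOX3 and JAZ10 because these genes share CATGTG and moved in opposite directions, JAZ7 for its CACGTG, and the VSP pair because only VSP1 holds a match. Capitals mark the hexamer in the sequences, which are written from 5′ to 3′ on the strand of the gene.
LOX2 (chr3:16524995-16525244, plus strand): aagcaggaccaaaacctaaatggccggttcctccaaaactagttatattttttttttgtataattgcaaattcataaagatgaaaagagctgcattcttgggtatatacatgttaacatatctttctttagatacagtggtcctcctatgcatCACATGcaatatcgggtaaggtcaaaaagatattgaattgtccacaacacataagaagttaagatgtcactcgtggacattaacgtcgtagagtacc
LOX3 (chr1:5977073-5977322, plus strand): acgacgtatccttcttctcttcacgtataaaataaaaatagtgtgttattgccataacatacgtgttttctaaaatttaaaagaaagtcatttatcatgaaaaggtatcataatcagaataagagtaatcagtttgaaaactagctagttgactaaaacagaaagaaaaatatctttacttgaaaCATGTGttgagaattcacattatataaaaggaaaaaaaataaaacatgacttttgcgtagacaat
JAZ10 (chr5:4218536-4218785, plus strand): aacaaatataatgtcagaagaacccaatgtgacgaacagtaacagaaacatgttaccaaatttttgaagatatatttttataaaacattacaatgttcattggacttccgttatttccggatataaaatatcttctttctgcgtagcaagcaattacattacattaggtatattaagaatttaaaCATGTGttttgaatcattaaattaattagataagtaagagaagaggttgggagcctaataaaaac
JAZ7 (chr2:14572780-14573029, plus strand): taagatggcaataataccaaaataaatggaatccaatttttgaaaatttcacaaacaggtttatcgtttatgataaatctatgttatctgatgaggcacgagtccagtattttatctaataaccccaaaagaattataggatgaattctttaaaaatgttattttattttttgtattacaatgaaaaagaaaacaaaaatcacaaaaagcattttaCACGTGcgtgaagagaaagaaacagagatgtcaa
VSP1 (chr5:8509202-8509451, minus strand): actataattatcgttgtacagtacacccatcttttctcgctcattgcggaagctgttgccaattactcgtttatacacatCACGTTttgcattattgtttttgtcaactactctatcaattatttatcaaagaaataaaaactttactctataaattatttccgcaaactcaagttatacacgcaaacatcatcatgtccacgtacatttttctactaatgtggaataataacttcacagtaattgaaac
VSP2 (chr5:8502225-8502474, minus strand): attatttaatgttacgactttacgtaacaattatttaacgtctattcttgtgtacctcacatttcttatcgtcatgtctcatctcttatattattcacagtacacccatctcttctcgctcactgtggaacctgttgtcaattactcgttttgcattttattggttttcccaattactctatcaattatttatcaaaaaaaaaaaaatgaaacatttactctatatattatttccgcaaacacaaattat

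The hexamer begins 97 bases before the start in LOX2, 65 bases in both LOX3 and JAZ10, 34 bases in JAZ7 and 170 bases in VSP1. In the genes not shown it begins 6 bases before the start in AOS, 10 bases in JAZ8 and 218 bases in JAZ5. The genes lie on chromosomes 1, 2, 3 and 5, at chr3:16525245-16529352 for LOX2, chr1:5977323-5981521 for LOX3, chr5:17097564-17099595 for AOS, which has a single exon, chr1:6621777-6623668 for JAZ1, chr1:5955155-5957511 for JAZ5, chr2:14573030-14573952 for JAZ7, chr1:10596352-10597341 for JAZ8 and chr5:4218786-4221077 for JAZ10. VSP1 (chr5:8507590-8509201) and VSP2 (chr5:8500468-8502224) are neighbours on the minus strand, 5365 bases apart. Their transcripts are 88.6% identical where aligned, and the longest exact run they share is 54 bases. Of the 30-base windows, 5.96% of those in VSP1 and 5.25% of those in VSP2 are found in the other gene. The paper gives paired-end reads longer than the shared run. Some reads could still be assigned to the wrong gene, which was not tested. JAZ10 overlaps a noncoding gene on the other strand over 71 of its exonic bases, and the strand setting of the counting is not given in the sources used here.

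In uninduced WT seedlings, the level per kilobase of exon was highest for AOS (172 ± 18.5 CPM per kb), followed by VSP2 (118 ± 12.4) and LOX2 (109 ± 30.2, SD, n = 4), which did not separate by their SD. LOX3 (27.7 ± 8.03), VSP1 (22.6 ± 2.79) and JAZ1 (19.6 ± 3.55 CPM per kb) came next and did not separate by their SD either. JAZ10 was at 10.7 ± 1.52 and JAZ5 at 6.62 ± 0.508 CPM per kb, with JAZ7 between them at 9 ± 2.95, within its SD of both, and JAZ8 was lowest at 0.766 ± 0.476 CPM per kb. JAZ8 had 1 to 48 counts per library over the series, too few to follow a modest change.

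The first question was whether the pathway moved over the first 3 h of induction, in lines with and without the transgenes. In the main fits it did in each genotype, WT included, and in both directions. LOX2 and VSP1 rose and LOX3 and JAZ10 fell in all 3 genotypes, although all of them are known as genes that jasmonate induces, and VSP2 rose in XVE:EPFL4 and WT. A gene is called here when the adjusted p of edgeR's quasi-likelihood test over all genes is under 0.05. In er XVE:ER, 4 of 10 genes were called at 3 h against uninduced, LOX2 and VSP1 higher and LOX3 and JAZ10 lower, beside 16.3% of all genes. In XVE:EPFL4, 8 of 10 were called (LOX2, AOS, JAZ7, VSP1 and VSP2 higher, LOX3, JAZ5 and JAZ10 lower), beside 34% of all genes. In WT, 8 of 10 were called, LOX2, AOS, JAZ1, JAZ7, VSP1 and VSP2 higher and LOX3 and JAZ10 lower, beside 23.5% of all genes. The median log2 fold change of the 10 genes was -0.01 in er XVE:ER, -0.01 in XVE:EPFL4 and 1 in WT, and that of all genes was -0.02, 0 and 0. Without the replicates numbered 4 that stood apart, er XVE:ER had 6 of 10 genes called beside 31.9% of all genes, with JAZ5 and VSP2 added, and WT had the same 8 genes called beside 36.8%. Other settings gave fewer or more calls. With all 35 libraries in 1 fit, XVE:EPFL4 had 3 of 10 beside 14.2% and WT 3 of 10 beside 20.8%. In that fit er XVE:ER kept 4 beside 13.6%. With every number 4 library left out, er XVE:ER had 6 beside 24.4%, XVE:EPFL4 10 beside 26.3% and WT 7 beside 32.1%. With the replicate number as a block, er XVE:ER had 3 beside 12.6%, XVE:EPFL4 9 beside 33.4% and WT 5 beside 17.2%. Leaving out each library in turn gave 2 to 6 of 10 in er XVE:ER (7.95% to 31.9% of all genes).

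**Figure D1:**
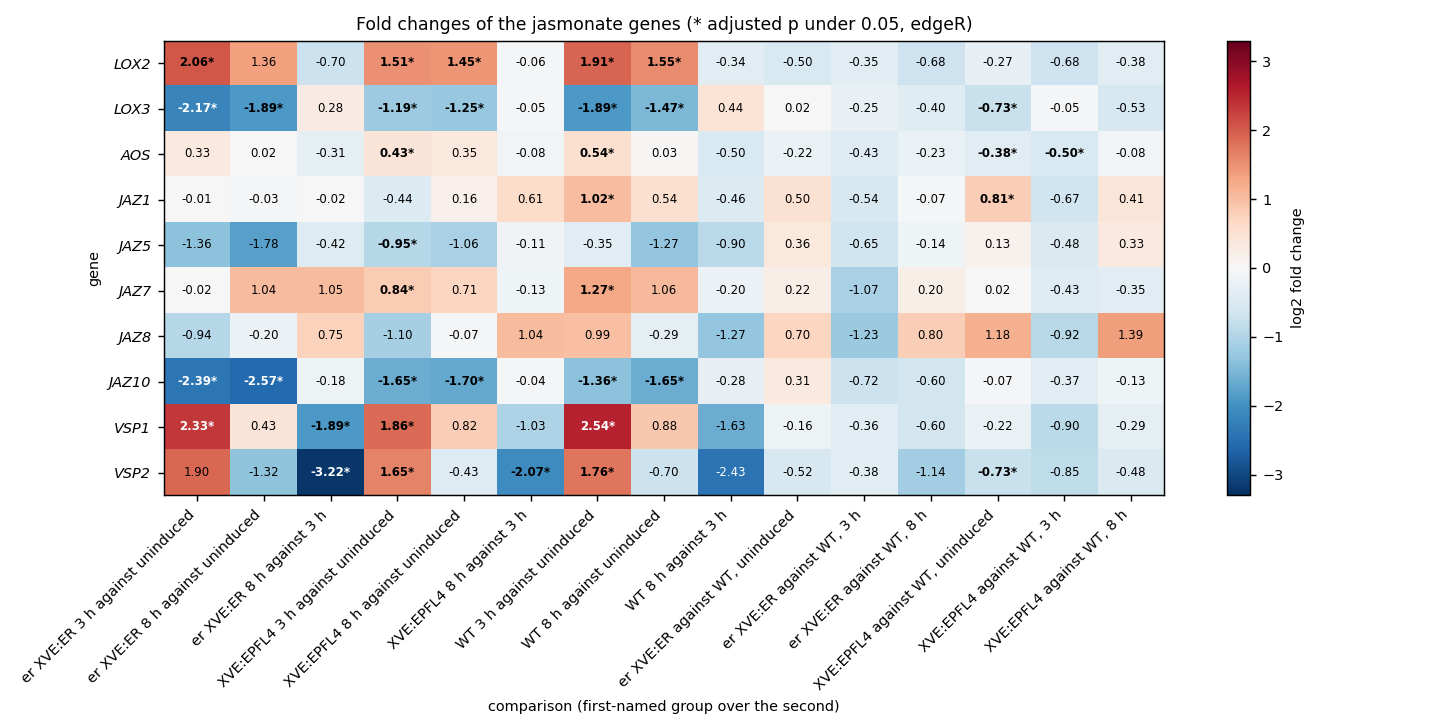
Log2 fold changes of the 10 jasmonate genes (rows) in the 15 comparisons of paired conditions (columns), with the first-named condition over the second. Red is higher, blue is lower, and an asterisk marks an adjusted p under 0.05 in edgeR. At 3 h LOX2 is red (2.06 in er XVE:ER, 1.51 in XVE:EPFL4 and 1.91 in WT) and LOX3 is blue (-2.17 in er XVE:ER, -1.19 in XVE:EPFL4 and -1.89 in WT).

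LOX2, which supplies much of the jasmonate made in wounded leaves, was the synthesis gene with the largest rise of the 3. In er XVE:ER it was at 273, 427, 241 and 56.4 CPM uninduced, at 1280, 1140 and 717 CPM at 3 h and at 840, 716, 691 and 325 CPM at 8 h. In XVE:EPFL4 it was at 281, 276, 262 and 344 CPM uninduced, at 740, 767, 1060 and 770 CPM at 3 h and at 869, 824, 764 and 776 CPM at 8 h. In WT it was at 229, 420, 327 and 445 CPM uninduced, at 1270, 2130, 1480 and 433 CPM at 3 h and at 1040, 639, 1190 and 1280 CPM at 8 h. Every library at 3 h lay above every uninduced one in er XVE:ER and XVE:EPFL4, and in WT only replicate 4 overlapped. The log2 fold change at 3 h was 2.06 ± 0.48 (SE, adjusted p = 0.0138) in er XVE:ER, 1.51 ± 0.12 (2.88e-07) in XVE:EPFL4 and 1.91 ± 0.40 (0.00724) in WT. This er XVE:ER call was lost without 3 h replicate 1 (adjusted p = 0.0534). At 8 h the libraries all lay above the uninduced ones in XVE:EPFL4 (1.45 ± 0.12, adjusted p = 9.56e-06) and WT (1.55 ± 0.26, 0.00188). The er XVE:ER value at 8 h was 1.36 ± 0.50 (0.0961), and without uninduced replicate 4 it was 1.04 and called (0.0421). Set against 3 h, LOX2 at 8 h was at -0.70 ± 0.31 (0.154) in er XVE:ER, -0.06 ± 0.13 (0.782) in XVE:EPFL4 and -0.34 ± 0.41 (0.633) in WT, none of them called.

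LOX3, a second 13-lipoxygenase, went the other way. The er XVE:ER libraries had 154, 118, 58.3 and 14.9 CPM uninduced, 15.6, 19.4 and 22.9 CPM at 3 h and 26.4, 30.1, 20.4 and 16.5 CPM at 8 h. The XVE:EPFL4 libraries had 44.2, 56.2, 57.4 and 46.0 CPM uninduced, 27.0, 19.1, 20.7 and 22.6 CPM at 3 h and 14.6, 23.3, 23.2 and 25.8 CPM at 8 h. The WT libraries had 64.2, 66.5, 95.4 and 116 CPM uninduced, 28.3, 19.3, 24.7 and 19.5 CPM at 3 h and 47.5, 16.6, 24.8 and 34.7 CPM at 8 h. The induced libraries were all below the uninduced ones in XVE:EPFL4 and WT at both times, and uninduced replicate 4 alone made the groups overlap in er XVE:ER. LOX3 fell at 3 h, with log2 fold changes of -2.17 ± 0.58 in er XVE:ER (SE, adjusted p = 0.026), -1.19 ± 0.11 in XVE:EPFL4 (1.7e-06) and -1.89 ± 0.21 in WT (0.000246), and at 8 h, with -1.89 ± 0.56 (0.0441), -1.25 ± 0.17 (0.000277) and -1.47 ± 0.32 (0.00676) in the same order of genotypes. The er XVE:ER call at 3 h was lost without uninduced replicate 1 or 2 or without any one of the 3 h libraries (highest adjusted p = 0.105), and at 8 h it was lost without any single library other than uninduced replicate 4 (highest 0.123). Without that library the log2 fold changes were -2.51 ± 0.31 at 3 h (3.91e-05) and -2.24 ± 0.31 at 8 h (0.000828).

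AOS, the enzyme after the lipoxygenases, changed little. At 3 h it was at 422, 401 and 309 CPM in er XVE:ER, against 388, 409, 297 and 98.1 CPM uninduced. It was at 358, 353, 402 and 330 CPM in XVE:EPFL4 at 3 h, all above the uninduced 251, 274, 292 and 247 CPM. In WT it was at 471, 625, 531 and 402 CPM at 3 h, again all above the uninduced 299, 348, 368 and 386 CPM. The rise was small and called in XVE:EPFL4 (log2 0.43 ± 0.08, adjusted p = 0.000568) and WT (0.54 ± 0.14, 0.0192), and er XVE:ER had 0.33 ± 0.35 (0.563). In WT the call was lost without uninduced replicate 2 or 3 h replicate 2 (highest adjusted p = 0.0527). At 8 h AOS was at 258 to 335 CPM in er XVE:ER, 273 to 449 CPM in XVE:EPFL4 and 218 to 431 CPM in WT, overlapping the uninduced libraries in each genotype, with log2 fold changes of 0.02, 0.35 and 0.03.

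**Figure D2:**
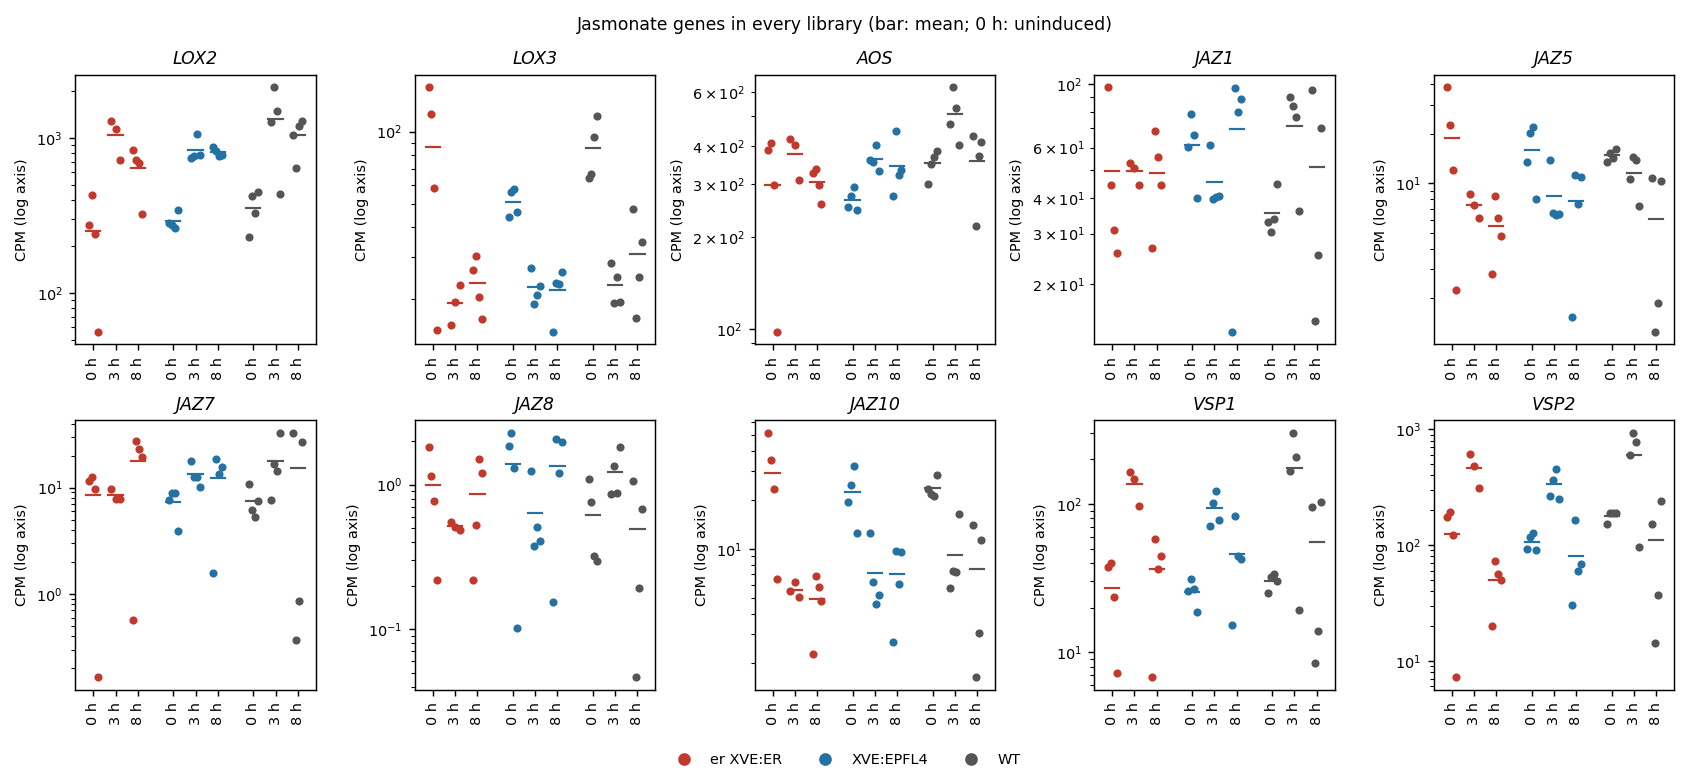
CPM (log axis) of each of the 10 genes in each of the 35 libraries (points) with the mean of each condition (bars), for er XVE:ER, XVE:EPFL4 and WT at 0 h (uninduced), 3 h and 8 h. Against 0 h, the means at 3 h and 8 h are higher for LOX2 and lower for LOX3 and JAZ10, those of VSP1 and VSP2 are highest at 3 h, and the 8 h points of JAZ7 split between 0.371 to 1.57 CPM in 4 libraries and 13.4 to 32.9 CPM in the others.

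Among the repressors, JAZ10 showed the clearest change, and it was a fall. JAZ10 makes splice forms that resist degradation, and all its transcripts are counted together here. Its level in er XVE:ER was 51.9, 35.1, 23.4 and 6.57 CPM uninduced, 5.48, 6.23 and 5.09 CPM at 3 h and 2.27, 6.86, 5.83 and 4.80 CPM at 8 h. Its level in XVE:EPFL4 was 19.5, 24.8, 32.5 and 12.6 CPM uninduced, 12.5, 6.23, 4.57 and 5.21 CPM at 3 h and 2.67, 9.65, 6.11 and 9.59 CPM at 8 h. Its level in WT was 23.4, 21.8, 21.0 and 28.5 CPM uninduced, 5.75, 7.29, 7.20 and 16.5 CPM at 3 h and 14.1, 1.62, 3.03 and 11.4 CPM at 8 h. Induced libraries lay below all uninduced ones in every genotype and time except er XVE:ER at 8 h, where replicate 2 exceeded the uninduced replicate 4. At 3 h the log2 fold change was -2.39 ± 0.50 in er XVE:ER (SE, adjusted p = 0.00812), -1.65 ± 0.30 in XVE:EPFL4 (0.000668) and -1.36 ± 0.28 in WT (0.00729). At 8 h it was -2.57 ± 0.55 (0.0115), -1.70 ± 0.38 (0.00581) and -1.65 ± 0.55 (0.0435) in the same order. In WT at 8 h the call was lost without any 1 of the uninduced libraries or without 8 h replicate 3 (highest adjusted p = 0.101), and without both 8 h libraries low in PRR7 the value was -0.89 ± 0.15 and called (0.00054).

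JAZ5 fell in XVE:EPFL4 at 3 h, with more scatter than JAZ10. At 3 h it was at 8.61, 7.35 and 6.19 CPM in er XVE:ER, against 38.7, 22.5, 12 and 2.24 CPM uninduced. The XVE:EPFL4 seedlings had 13.8, 6.60, 6.43 and 6.47 CPM at 3 h, against 13.5, 20.3, 22.1 and 8.05 CPM uninduced. The WT seedlings had 10.6, 14.4, 13.8 and 7.23 CPM at 3 h, against 13.5, 15.3, 14.3 and 16.1 CPM uninduced. The groups overlapped in each genotype, and the change was called in XVE:EPFL4 only (log2 -0.95 ± 0.29, adjusted p = 0.022), where leaving out uninduced replicate 2 or 3 or 3 h replicate 2, 3 or 4 ended the call (highest 0.0802), as did DESeq2. It was -1.36 ± 0.61 (0.151) in er XVE:ER and -0.35 in WT (0.216). Without uninduced replicate 4, er XVE:ER gave -1.72 ± 0.30 (0.000633). At 8 h JAZ5 was at 2.79, 8.34, 6.13 and 4.75 CPM in er XVE:ER, at 1.53, 11.3, 7.46 and 10.9 CPM in XVE:EPFL4 and at 10.8, 1.25, 1.88 and 10.4 CPM in WT. The WT libraries at 8 h all lay below the uninduced ones, the lowest being the replicates low in PRR7, and with all libraries no 8 h comparison of JAZ5 was called.

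No fall of JAZ1 or JAZ7 was called at 3 h. JAZ1, one of the repressors through which the JAZ family was defined, was at 53.2, 51.1 and 44.3 CPM at 3 h in er XVE:ER, against 98.0, 44.4, 30.8 and 25.6 CPM uninduced. For XVE:EPFL4 the values were 61.1, 39.8, 40.3 and 40.5 CPM at 3 h, against 60.5, 78.6, 66.2 and 39.9 CPM uninduced. For WT the values were 90.1, 83.9, 76.7 and 35.9 CPM at 3 h, against 32.9, 30.4, 33.6 and 44.8 CPM uninduced. In WT 3 of the 4 libraries at 3 h were about level with each other and above every uninduced library, and replicate 4 lay among the uninduced ones. JAZ1 rose in WT (log2 1.02 ± 0.25, adjusted p = 0.0153), while er XVE:ER had -0.01 ± 0.36 (0.988) and XVE:EPFL4 -0.44 (0.0696). At 8 h its libraries ran from 26.7 to 68.6 CPM in er XVE:ER, from 13.6 to 96.8 CPM in XVE:EPFL4 and from 14.8 to 95.4 CPM in WT. No change at 8 h was called, with log2 fold changes of -0.03, 0.16 and 0.54.

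JAZ7, a small repressor close in sequence to JAZ8, was at 9.71, 7.81 and 7.86 CPM at 3 h in er XVE:ER, against 11.5, 12.6, 9.79 and 0.164 CPM uninduced. In XVE:EPFL4 it was at 17.7, 12.7, 12.6 and 10.1 CPM at 3 h, all above the uninduced 7.64, 8.97, 8.99 and 3.92 CPM. In WT it was at 7.69, 16.8, 14.4 and 32.3 CPM at 3 h, against 10.8, 6.10, 5.29 and 7.43 CPM uninduced. The rise was called in XVE:EPFL4 (log2 0.84 ± 0.22, adjusted p = 0.0077) and in WT (1.27 ± 0.38, 0.0356), where the groups overlapped and one library, replicate 4, lay far above the rest. The WT call was lost without uninduced replicate 2, 3 or 4 or 3 h replicate 2 or 3 (highest adjusted p = 0.0983), and without 3 h replicate 4 the value was 0.82 ± 0.26 (0.0268). The er XVE:ER value was -0.02 ± 0.66 (0.989). JAZ8, whose protein is a stable repressor, was at or under 2.29 CPM in every library, and none of its changes against uninduced was called: at 3 h its log2 fold change was -0.94 (adjusted p = 0.317) in er XVE:ER, -1.10 (0.161) in XVE:EPFL4 and 0.99 (0.135) in WT.

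The output genes VSP1 and VSP2 had their highest mean at 3 h in every genotype and a lower one at 8 h. VSP2 in er XVE:ER was at 174, 193, 123 and 7.17 CPM uninduced, at 608, 482 and 310 CPM at 3 h and at 20.0, 73.5, 56.0 and 50.1 CPM at 8 h. VSP2 in XVE:EPFL4 was at 92.8, 118, 127 and 90.7 CPM uninduced, at 268, 368, 457 and 251 CPM at 3 h and at 30.2, 164, 59.9 and 68.2 CPM at 8 h. VSP2 in WT was at 151, 189, 188 and 189 CPM uninduced, at 598, 940, 784 and 95.7 CPM at 3 h and at 151, 14.2, 37.2 and 239 CPM at 8 h. All libraries at 3 h were above all others in er XVE:ER and XVE:EPFL4, and in WT 3 of 4 were, replicate 4 being below every uninduced library. At 3 h against uninduced the log2 fold change was 1.90 ± 0.67 in er XVE:ER (SE, adjusted p = 0.0728), 1.65 ± 0.17 in XVE:EPFL4 (4.24e-06) and 1.76 ± 0.51 in WT (0.0298). Without uninduced replicate 4 er XVE:ER gave 1.51 ± 0.20 (8.41e-05), and without 3 h replicate 4 WT gave 2.12 ± 0.13 (3.82e-07). The WT call was lost when any 1 of the other 7 libraries was left out (highest adjusted p = 0.0829).

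VSP1 followed VSP2 at a lower level. VSP1 in er XVE:ER was at 37.4, 39.7, 23.4 and 7.22 CPM uninduced, at 163, 147 and 96.7 CPM at 3 h and at 6.76, 58, 36.6 and 44.8 CPM at 8 h. VSP1 in XVE:EPFL4 was at 25.9, 31.2, 26.7 and 18.8 CPM uninduced, at 71.5, 102, 123 and 77.5 CPM at 3 h and at 15.2, 82.5, 44.4 and 42.7 CPM at 8 h. VSP1 in WT was at 25.1, 32.1, 33.7 and 30.1 CPM uninduced, at 168, 303, 208 and 19.2 CPM at 3 h and at 96.0, 8.48, 14.0 and 103 CPM at 8 h. As for VSP2, the 3 h libraries stood clear of the uninduced ones except WT replicate 4. The log2 fold change at 3 h was 2.33 ± 0.41 in er XVE:ER (adjusted p = 0.00323), 1.86 ± 0.17 in XVE:EPFL4 (1.33e-06) and 2.54 ± 0.59 in WT (0.0125). Whether any reads of this similar pair were assigned to the wrong gene was not tested.

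The next comparison was 8 h against uninduced, and it asked which of these changes lasted. LOX2 was still up in XVE:EPFL4 and WT and LOX3 and JAZ10 were still down in all 3 genotypes, whereas neither VSP gene was called. At 8 h in er XVE:ER 2 of 10 genes were called, LOX3 and JAZ10, both lower, beside 16.2% of all genes. In XVE:EPFL4 3 of 10 were called, LOX2 higher and LOX3 and JAZ10 lower, beside 35.8% of all genes. In WT the count was 3 of 10 with the same genes, beside 33.7% of all genes. Each of these shares is near that of all genes. Leaving out er XVE:ER uninduced replicate 4 gave 5 of 10 genes beside 24.7% of all genes, with LOX2 higher and LOX3, JAZ5 (-2.15, adjusted p = 0.00504), JAZ10 (-2.90) and VSP2 (-1.71, 0.00713) lower.

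At 8 h the libraries of each genotype split along the level of PRR7. JAZ7 was at 27.5, 22.9 and 19.4 CPM in er XVE:ER replicates 2 to 4, but at 0.567 CPM in replicate 1. In XVE:EPFL4 it was at 18.4, 13.4 and 15.7 CPM in replicates 2 to 4, but at 1.57 CPM in replicate 1. In WT it was at 32.9 and 27.1 CPM in replicates 1 and 4, but at 0.371 and 0.867 CPM in replicates 2 and 3. The 4 low libraries are those with PRR7 under 50 CPM. In these libraries the lowest value of the group was found for 7 of 10 genes in er XVE:ER, all but LOX2, LOX3 and AOS, and for 9 of 10 in XVE:EPFL4, all but LOX2. In WT the low pair held the 2 lowest values for 9 of 10 genes, and for LOX2 replicate 2 was the lowest (639 CPM) but replicate 3 (1190 CPM) was not low. Of 7 touch and stress genes, 3 were lowest in the same er XVE:ER library and 7 in the XVE:EPFL4 and WT libraries, and their summed level was 347 CPM there against 679 to 903 CPM in the other er XVE:ER libraries, 138 CPM against 418 to 648 CPM in XVE:EPFL4, and 44.5 and 159 CPM against 880 to 1070 CPM in WT. Of 10 clock genes, 5 were lowest there in er XVE:ER, 6 in XVE:EPFL4 and 6 in WT. PRR7, by which the libraries were picked, is among these clock genes, so its place in each count was set by that choice. How many of all genes were lowest in these libraries was not counted, so the split cannot be called particular to the jasmonate genes. The part that time of day or handling has in these values was not tested.

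**Figure D3:**
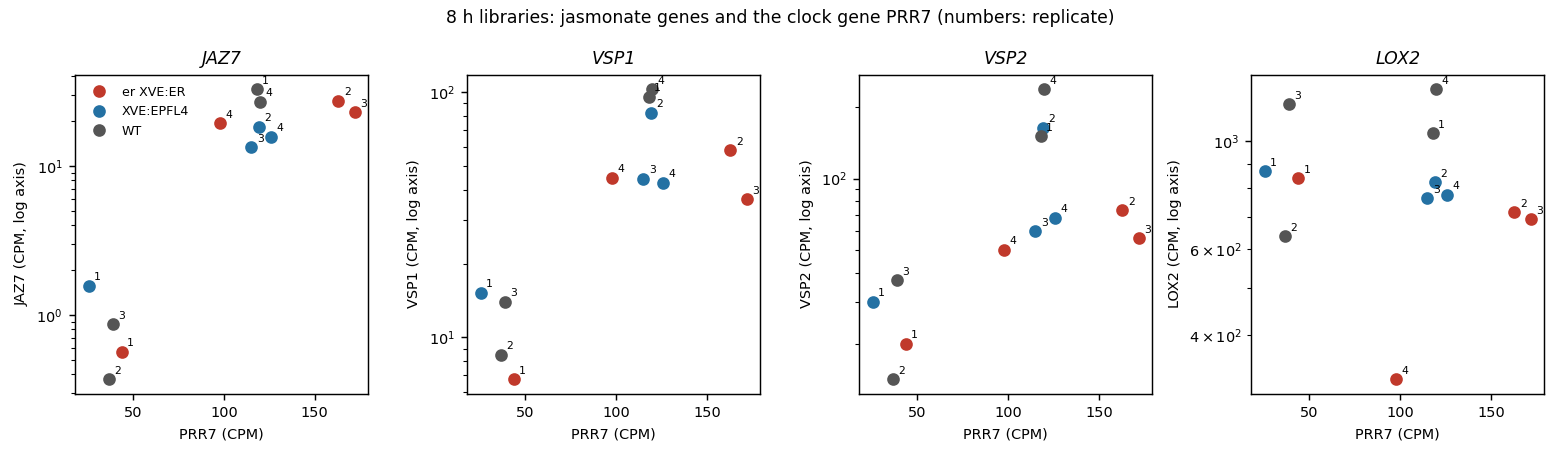
CPM of JAZ7, VSP1, VSP2 and LOX2 (log axis) against CPM of the clock gene PRR7 (linear axis) in the 12 libraries at 8 h, coloured by genotype and numbered by replicate. The 4 libraries with PRR7 at 25.3 to 43.6 CPM are also the 4 lowest for JAZ7, VSP1 and VSP2, whereas the lowest LOX2 value of the 12 is 325 CPM in er XVE:ER replicate 4.

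Without these 4 libraries, a choice made after seeing the data, more of the genes were called in WT and XVE:EPFL4. In WT 7 of 10 genes were then called beside 39% of all genes: LOX2 (1.71), JAZ1 (1.23), JAZ7 (2.03 ± 0.21, adjusted p = 1.2e-05) and VSP1 (1.72 ± 0.11, 2.65e-07) were higher and LOX3 (-1.06), JAZ5 (-0.47) and JAZ10 (-0.89) lower. VSP2 in WT went to 0.13 (0.573), whereas with all 4 libraries it was -0.70 (0.461). The log2 fold changes of JAZ1, JAZ7 and VSP1 in WT with all libraries were 0.54 (0.429), 1.06 (0.456) and 0.88 (0.357). In XVE:EPFL4 6 of 10 genes were called beside 32.8% of all genes, with AOS (0.45), JAZ7 (1.08 ± 0.25, 0.0096) and VSP1 (1.12 ± 0.24, 0.0067) added to LOX2, LOX3 and JAZ10. For er XVE:ER, leaving out 8 h replicate 1 alone gave 1 of 10 genes beside 13.4% of all genes, JAZ10 (-2.33 ± 0.58, 0.0304), with LOX3 at -1.95 (0.0859). Leaving out both 8 h replicate 1 and uninduced replicate 4 gave 5 of 10 genes beside 27.2% of all genes. There JAZ7 was higher (1.04 ± 0.16, 0.00202) and LOX3 (-2.30), JAZ5 (-1.92), JAZ10 (-2.65) and VSP2 (-1.45 ± 0.20, 0.00114) were lower.

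The 8 h libraries were also set directly against those at 3 h, where the count of genes called was near or below the share of all genes in each genotype. The genes VSP2 (log2 -3.22 ± 0.39, adjusted p = 0.000669) and VSP1 (-1.89 ± 0.52, 0.0382) were lower at 8 h in er XVE:ER, 2 of 10 genes beside 15.4% of all genes. In XVE:EPFL4 VSP2 alone was called (-2.07 ± 0.44, 0.00711), 1 of 10 genes beside 26.8% of all genes, and VSP1 was at -1.03 ± 0.40 (0.0794). In WT none of the 10 was called in edgeR or in DESeq2, beside 16% of all genes, and VSP2 alone had an unadjusted p under 0.05 (-2.43 ± 0.90, adjusted p = 0.105), VSP1 being at -1.63 ± 0.93 (0.283). Every 8 h library was below every 3 h library for both VSP genes in er XVE:ER and for VSP2 in XVE:EPFL4, but not in WT, where 3 h replicate 4 overlapped. The er XVE:ER call of VSP1 was lost without any 1 of the 3 h libraries or without 8 h replicate 3 or 4 (highest adjusted p = 0.132). Without all 6 libraries that stood apart, 6 of 10 genes were called in WT beside 39.3% of all genes: VSP2 (-2 ± 0.22, 7.82e-05), VSP1 (-1.2 ± 0.2, 0.00117) and AOS (-0.38) were lower and LOX3 (0.75), JAZ7 (1.2) and JAZ10 (0.90) higher at 8 h. Without the low-PRR7 library, er XVE:ER had 3 genes called beside 18% of all genes, JAZ7 (1.46 ± 0.16, 0.000492) being added, and XVE:EPFL4 had 3 beside 25%, with JAZ1 (0.95) and JAZ8 (1.42) higher and VSP2 (-1.80) lower.

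The last question was whether either line differed from WT. Against WT, none of the 10 genes of er XVE:ER was called in edgeR when uninduced (beside 0.0861% of all genes), at 3 h (0.0501%) or at 8 h (0.0253%), and DESeq2 called none of them either. An unadjusted p under 0.05 was found for 0, 4 and 0 genes at these times, the 4 being AOS, JAZ5, JAZ7 and JAZ8, all lower at 3 h in er XVE:ER. JAZ8 there was at 0.552, 0.511 and 0.483 CPM in er XVE:ER against 0.860, 1.34, 0.868 and 1.81 CPM in WT, with no overlap (log2 -1.23, adjusted p = 0.433). Without WT 3 h replicate 4, JAZ1 (-0.75 ± 0.09, 0.00417) and JAZ5 (-0.81 ± 0.16, 0.0342) were called lower in er XVE:ER at 3 h, beside 1.86% of all genes. With that library they were -0.54 and -0.65. The difference between the er XVE:ER and WT responses was not called for any of the 10 genes in edgeR at 3 h (0.00981% of all genes) or at 8 h (0.00985%), with 1 and 0 genes at an unadjusted p under 0.05 and none called by DESeq2. Without the 6 libraries that stood apart, the fall of VSP2 at 8 h was steeper in er XVE:ER than the change in WT (-1.58 ± 0.29, 0.0382), 1 of 10 genes beside 0.341% of all genes, and with all libraries that difference was -0.63 ± 1.09 (0.973).

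The XVE:EPFL4 line differed from WT before induction. Uninduced, 4 of 10 genes were called beside 9.93% of all genes: JAZ1 was higher in XVE:EPFL4 (60.5, 78.6, 66.2 and 39.9 CPM against 32.9, 30.4, 33.6 and 44.8 CPM in WT, log2 0.81 ± 0.18, adjusted p = 0.0115), and 3 genes were lower. VSP2 was lower at 92.8, 118, 127 and 90.7 CPM in XVE:EPFL4 against 151, 189, 188 and 189 CPM in WT, with no overlap (-0.73 ± 0.12, 0.00198). LOX3 (-0.73 ± 0.17, 0.0166) and AOS (-0.38 ± 0.09, 0.0232) were lower too, each with every XVE:EPFL4 library below every WT library. The LOX3 call was lost without WT replicate 3 or XVE:EPFL4 replicate 1 (highest 0.0602), and that of AOS without WT replicate 3 or 4 or XVE:EPFL4 replicate 1 or 4 (highest 0.0849). EPFL4 itself was already higher in uninduced XVE:EPFL4 (1.35 to 3.39 CPM) than in uninduced WT (0.535 to 0.793 CPM). The summed level of the 7 touch and stress genes was 515 to 553 CPM in uninduced XVE:EPFL4 and 176 to 359 CPM in uninduced WT. The part of either in these differences was not tested. When the 35 libraries shared 1 fit, all 4 calls were lost.

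At 3 h AOS alone was called against WT (-0.50 ± 0.13, adjusted p = 0.0493), 1 of 10 genes beside 6.11% of all genes, and this was lost when any 1 library other than WT replicate 4 was left out (highest 0.152). Without WT replicate 4, 5 of 10 genes were lower in XVE:EPFL4 beside 26.2% of all genes, LOX2 (-0.98 ± 0.16, 0.000646), AOS (-0.61), JAZ1 (-0.90 ± 0.13, 0.000369), VSP1 (-1.29 ± 0.20, 0.000493) and VSP2 (-1.22 ± 0.19, 0.000518). At 8 h no member was called in edgeR, beside 0.00503% of all genes, with 0 at an unadjusted p under 0.05 and none called by DESeq2. Without the libraries low in PRR7, JAZ7 was lower in XVE:EPFL4 (-0.94 ± 0.17, 0.0469), 1 of 10 genes beside 2.12%. The 3 h responses of the line and WT differed for JAZ1 (-1.48 ± 0.34, 0.0351), 1 of 10 genes beside 2.06% of all genes. JAZ1 had risen by 1.02 in WT and was at -0.44 in XVE:EPFL4, where the uninduced level was higher. Of the 16 libraries, leaving out any 1 of 12 ended that call (highest adjusted p = 0.0799). It held without replicate 4 of WT at 3 h or uninduced, without XVE:EPFL4 uninduced replicate 4 or without XVE:EPFL4 3 h replicate 1. Without WT 3 h replicate 4, JAZ1 (-1.69 ± 0.25, 0.000301) and VSP1 (-1.06 ± 0.27, 0.0178) differed, 2 of 10 beside 9.85% of all genes. The 8 h responses did not give a call for any member in edgeR, beside 0.157% of all genes, with 0 genes at an unadjusted p under 0.05 and none called by DESeq2.

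The rest of the pathway was read from a list of 47 further genes of jasmonate synthesis, turnover, perception and output, 40 to 43 of which were tested in each comparison. That list too was chosen with earlier results of these data known. Lower calls outnumbered higher ones in each genotype. At 3 h against uninduced, 3 of 41 were higher and 6 lower in er XVE:ER, 4 of 42 higher and 17 lower in XVE:EPFL4, and 5 of 41 higher and 11 lower in WT. At 8 h against uninduced, 2 of 40 were higher and 10 lower in er XVE:ER, 4 of 40 higher and 16 lower in XVE:EPFL4, and 7 of 41 higher and 11 lower in WT. Beside the shares of all genes given above, er XVE:ER had 22% of the list called at 3 h and 30% at 8 h, XVE:EPFL4 50% at both times, and WT 39% and 43.9%. Without the number 4 libraries that stood apart, er XVE:ER had 3 of 41 higher and 22 lower at 3 h, beside 31.9% of all genes called. At 8 h it had 4 of 40 higher and 21 lower, beside 24.7%. In WT, 8 of 42 were then higher and 13 lower at 3 h, beside 36.8%.

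CORI3, a coronatine-induced cystine lyase, rose in every genotype and time. At 3 h it averaged 119 ± 31.3 CPM in er XVE:ER, against 13 ± 7.78 CPM uninduced (SD, n = 3 and 4, log2 3.19 ± 0.47, adjusted p = 0.00112). In XVE:EPFL4 it averaged 128 ± 25.3 CPM at 3 h, against 22.4 ± 4.48 CPM uninduced (2.52 ± 0.15, 2.35e-08), and in WT 203 ± 98.0 CPM against 17.2 ± 3.52 CPM (3.56 ± 0.34, 0.000109). LOX4, the closest relative of LOX3, fell with it: at 3 h it was at 10.3 to 10.9 CPM in er XVE:ER against 20.3 to 121 CPM uninduced, 21.2 to 35 CPM in XVE:EPFL4 against 62.4 to 93.2 CPM, and 12.4 to 15.4 CPM in WT against 47.9 to 72.7 CPM, with no overlap in any genotype (-2.67, -1.63 and -2.06, all called). Of the turnover genes, 4 of 10 tested were lower in er XVE:ER at 3 h, 6 of 10 in XVE:EPFL4 and 4 of 10 in WT, and 6 of 10, 8 of 9 and 3 of 10 at 8 h in the same order. Of all genes, 7.87%, 16.9% and 10.5% were lower at 3 h and 7.38%, 17.5% and 15.2% at 8 h. Among these, JOX3, an oxygenase that inactivates jasmonic acid, was -2.01, -1.65 and -1.33 at 3 h in er XVE:ER, XVE:EPFL4 and WT, all called, and CYP94B3, which hydroxylates jasmonoyl-isoleucine, was -2.59 ± 0.55 (0.0112) in er XVE:ER and -2.99 ± 0.51 (0.00116) in XVE:EPFL4 at 8 h, against -0.91 (0.0712) in WT. At 8 h CYP94B3 averaged only 0.662 CPM in er XVE:ER, 0.623 CPM in XVE:EPFL4 and 1.33 CPM in WT. The difference of 8 h responses from WT was called for 0 of 42 further genes in er XVE:ER and 0 of 43 in XVE:EPFL4. JOX4, of the same family as JOX3, was instead higher in WT at 3 h (2.42 ± 0.65, 0.0228) and 8 h (2.17 ± 0.73, 0.0456) and overlapped the uninduced libraries. Its WT means were low, at 0.633 CPM uninduced, 3.37 CPM at 3 h and 2.85 CPM at 8 h. ORA59, a factor of the ethylene and jasmonate branch, was higher at 8 h in er XVE:ER (2.18 ± 0.38, 0.00428), XVE:EPFL4 (0.90 ± 0.30, 0.0397) and WT (2.46 ± 0.42, 0.00202). MYC2 is listed at 0 in all 35 libraries and was not tested. Whether it was silent or left out of the counting cannot be told from these counts.

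Likeness between members is described by Pearson's r of log2 CPM over the 35 libraries, without a test, since libraries of one condition share their treatment and time. The highest values were 0.89 for VSP1 and VSP2, 0.86 for JAZ5 and JAZ10 and 0.85 for LOX3 and JAZ10. AOS was at 0.78 with VSP2, 0.76 with LOX2 and 0.71 with VSP1, and JAZ1, JAZ7 and JAZ8 were at 0.71 to 0.74 with each other. JAZ5 was at 0.71 with LOX3, 0.70 with JAZ1 and 0.62 with VSP2. The lowest values were -0.49 for LOX2 and JAZ10 and -0.39 for LOX2 and LOX3. The genes most like JAZ10 among 20926 were AT1G61890 (0.93), PNC2 (0.92), ASA1 (0.92), AT1G75230 (0.91) and IAR3 (0.91), of which IAR3 is a jasmonoyl-isoleucine hydrolase on the list above and ASA1 an anthranilate synthase. Those most like LOX2 were CORI3 (0.94), P58IPK (0.91), GAUT1 (0.91), ATMPK8 (0.90) and AT5G59130 (0.90). Those most like VSP2 were JR1 (0.94), a jasmonate-responsive lectin gene, MBP2 (0.94), TSA1 (0.93), AT3G28220 (0.92) and AT4G13800 (0.91).

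**Figure D4:**
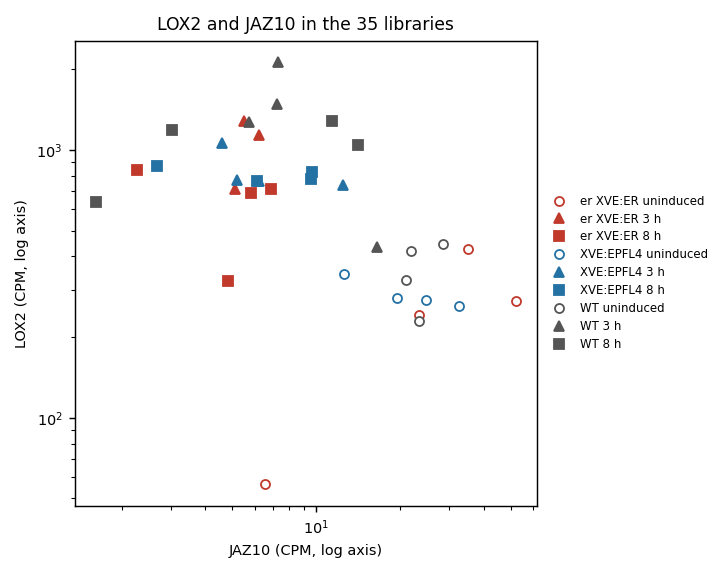
LOX2 (vertical) against JAZ10 (horizontal) in CPM, both on log axes, in the 35 libraries, with open circles for uninduced, triangles for 3 h and squares for 8 h libraries, coloured by genotype. Uninduced libraries lie at the lower right except er XVE:ER replicate 4 (LOX2 56.4, JAZ10 6.57 CPM), and the induced ones lie above or to the left, with WT 3 h replicate 4 (433 and 16.5 CPM) nearest to the uninduced set.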

How the data were processed

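RNA was sequenced by the authors from whole seedlings, a few per sample, in 35 libraries of 9 conditions. The authors mapped paired-end reads with STAR 2.7.11a to TAIR10 and deposited raw counts of reads per gene for each library, not normalized. Strand, trimming and duplicates are not given in the sources used here. The methods call the samples biological repeats and give 3 h on mock plates, where the labels give 0 h. Neither says which libraries share a plate or day, so p-values measure the spread between these samples. The methods cover ER induction at 3 h. The EPFL4 line and 8 h come from the labels.

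Counts were analysed in R 4.3.3 with edgeR 4.0.16 (filterByExpr with minimum count 10 and minimum total 15, TMM, estimateDisp, glmQLFit and glmQLFTest, Benjamini-Hochberg over all genes tested, threshold 0.05). Each comparison was fitted on its own groups, except that er XVE:ER at 3 h against uninduced also held WT uninduced. A difference of responses was fitted on 4 groups. Each SE came from the log2 fold change over the root of its F statistic. CPM uses TMM factors over all libraries, and correlations use log2 CPM with a prior count of 2. All 10 members passed the filter in every comparison. The fits were also run on simulated counts with the same spread for every gene and no library standing apart. Because the real libraries differ from that, the run does not show how the fits behave on them. Total counts ran from 18224765 to 25089853, which leaves JAZ8 at 1 to 48 counts. No pair of replicates was equal within counting noise (51 pairs, chi-square per degree of freedom from 3.47 to 96.5).

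The alternatives were DESeq2 1.42.0, its size factors within edgeR, a minimum of 1 count as the only filter, a joint fit of the 35 libraries, a block on the replicate number, each library left out in turn, number 4 libraries left out, and libraries that stood apart left out. All of the libraries that stood apart were chosen by their values, after the data were seen. Positions, upstream sequences and names come from TAIR10.1 (RefSeq), which matched 32548 of 32833 IDs. Named genes are the members, the 3 genes of the further list with the largest called change in each comparison against uninduced, which are then given in other comparisons too, and the 5 genes most correlated with JAZ10, LOX2 and VSP2. RBCS1A, LHCB1.3, PYK10, TIP2;3, 10 clock genes and 7 stress genes served as checks. The members and lists were chosen with earlier results of these data known.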

Additional observations from a re-analysis of the deposited data

Results flagged for a closer look

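Values far from the rest of their group were looked for in 80 groups of 4 libraries with Dixon's ratio, whose 95% limit chance passes in about 1 of 20 groups, and 6 were found. Of these, 4 are in XVE:EPFL4 at 3 h. LOX2 was at 1060 CPM in replicate 3 against 740 to 770 CPM in the others. In replicate 1, JAZ1 was at 61.1 CPM against 39.8 to 40.5 CPM, JAZ5 at 13.8 CPM against 6.43 to 6.60 CPM and JAZ8 at 1.25 CPM against 0.376 to 0.508 CPM. JAZ10 was at 16.5 CPM in WT 3 h replicate 4 against 5.75 to 7.29 CPM in the others. VSP2 was at 151 CPM in WT uninduced replicate 1 against 188 to 189 CPM. None of the 6 is in an 8 h group, where the low libraries described above are.

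The response of JAZ1 at 3 h differed between XVE:EPFL4 and WT by the test of the difference itself (log2 -1.48, edgeR adjusted p = 0.0351). The call rests on few libraries, since leaving out any 1 of 12 among the 16 ended it. It was also lost in the joint fit of all libraries and with the replicate number as a block.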

How the results depend on the processing

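Counts of called members are out of 10, each followed by the share of all genes called in the same fit, and the causes of the shifts were not tested. DESeq2's size factors changed no call, and DESeq2 lost JAZ5 in XVE:EPFL4 at 3 h only. With all 35 libraries in 1 fit, er XVE:ER had 4 at 8 h against uninduced (31.4%) and 1 at 8 h against 3 h (21.7%), XVE:EPFL4 had 3 at 3 h against uninduced (14.2%), and WT had 3 at 3 h against uninduced (20.8%) and 1 at 8 h against 3 h (23.5%). The same fit gave 0 for XVE:EPFL4 against WT uninduced (1.89%), 0 at 3 h (1.46%) and 0 for the difference of their 3 h responses (0.0765%). With no filter beyond 1 count, XVE:EPFL4 against WT at 3 h gave 0 (4.01%).

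With the replicate number as a block, XVE:EPFL4 had 2 at 8 h against 3 h (21.4%), WT had 5 at 3 h against uninduced (17.2%), and XVE:EPFL4 against WT gave 0 at 3 h (1.92%) and 0 for the difference of responses (1.73%). JAZ7 in WT at 8 h against uninduced turned to -0.15 under the block. Deviations of libraries with the same number correlated at -0.47 to 0.27, and no comparison had all its pairs above 0.1, so the numbers were not taken as pairs.

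With number 4 libraries left out, er XVE:ER had 5 at 8 h against uninduced (28.4%) and 1 against WT at 3 h (0.623%), XVE:EPFL4 against WT had 2 uninduced (6.10%), 5 at 3 h (21.2%) and 2 for the difference of 3 h responses (5.91%), and WT had 1 at 8 h against 3 h (16.3%). Of the 5 genes most like JAZ10, LOX2 and VSP2, 3 of 5 were shared for each. Without er XVE:ER uninduced 4 and WT 3 h 4, the counts were 5 for er XVE:ER at 8 h against uninduced (24.7%), 2 for er XVE:ER against WT at 3 h (1.86%), 5 for XVE:EPFL4 against WT at 3 h (26.2%), 2 for the difference of those 3 h responses (9.85%) and 1 for WT at 8 h against 3 h (20.4%). Without the 8 h libraries low in PRR7, er XVE:ER had 1 at 8 h against uninduced (13.4%), XVE:EPFL4 had 6 at 8 h against uninduced (32.8%), 3 against 3 h (25%) and 1 against WT at 8 h (2.12%), and WT had 7 at 8 h against uninduced (39%) and 1 against 3 h (17.1%). VSP2 in WT at 8 h against uninduced turned to 0.13. Without all 6 libraries, er XVE:ER had 5 at 8 h against uninduced (27.2%), its 8 h response differed from WT for 1 (0.341%), and WT had 6 at 8 h against 3 h (39.3%).

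Leaving out each library in turn gave, at 3 h against uninduced, 2 to 6 in er XVE:ER (7.95% to 31.9% of all genes), 7 to 10 in XVE:EPFL4 (27.4% to 33.3%) and 5 to 8 in WT (15.2% to 36.8%). At 8 h against uninduced it gave 1 to 5 in er XVE:ER (9.46% to 24.7%), 3 to 6 in XVE:EPFL4 (27.2% to 36.8%) and 2 to 3 in WT (25.2% to 32.5%). At 8 h against 3 h it gave 1 to 3 in er XVE:ER (5.88% to 18.3%), 1 to 3 in XVE:EPFL4 (16.2% to 30.7%) and 0 to 1 in WT (8.59% to 20.4%). Against WT it gave 0 to 2 for er XVE:ER at 3 h (0.0199% to 1.86%), 2 to 5 for XVE:EPFL4 uninduced (5.84% to 9.43%) and 0 to 5 at 3 h (0.0601% to 26.2%), and 0 to 2 for the difference of XVE:EPFL4 and WT responses at 3 h (0.919% to 9.85%). The VSP2 difference of 8 h responses between er XVE:ER and WT ran from -1.02 to 0.09. Among single genes over all alternatives, 782 values stayed on their side of the threshold, 57 newly passed it, 99 no longer did and 3 changed sign.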
